A study of Mus musculus with 6 samples.

Results

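The 38 genes described here build the hormone granules of endocrine cells and release them on demand. They encode granins, the enzymes that cut and trim prohormones, granule membrane proteins, the proteins that dock and fuse granules, and the channels and receptors that couple a stimulus to release. The genes were listed by name, and all 38 passed the filter on low counts, among 15897 genes tested. RNA came from the whole pancreas of C57BL/6 mice at 1 day of age. Wild-type mice (WT) gave 3 libraries and mice labelled miR216a-/- (KO), which lack the pancreatic microRNA miR-216a, gave 3. Per the labels each library is a separate donor mouse, while the labels are silent on sex, litter and the way the allele was made. Every cell type of the organ contributes RNA, so islet cells are a minority of what was measured, and a lower level can come from fewer cells of a type or from less RNA per cell, which cannot be told apart.

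Peptide hormones are made as precursors and packed with granins into dense-core granules. Proprotein convertases cut the precursors inside the granule, carboxypeptidase E removes the exposed basic residues, and an amidating enzyme finishes some peptides. In beta cells a rise in ATP closes the KATP channel, voltage-gated calcium channels open, and calcium sensors trigger fusion of the granule with the plasma membrane. Neurons use much of the same machinery for synaptic and dense-core vesicles, so several of these genes are also active in nerves.

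The microRNA that the KO mice lack pairs with messages through its seed, bases 2 to 8, shown here in capitals because it defines which of the 38 messages could be direct targets. Both mature arms come from 1 hairpin on the plus strand of chromosome 11 (RefSeq, GRCm38.p6), at chr11:28757018-28757039 for the 5p arm and chr11:28757058-28757079 for the 3p arm.
mmu-miR-216a-5p: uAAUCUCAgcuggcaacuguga
mmu-miR-216a-3p: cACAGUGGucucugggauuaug
Salmon's transcript set held 0 transcripts of Mir216a, so the genotype of a library is known from its label alone and its loss of the microRNA was not analysed here.

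In the longest annotated 3' UTR (GENCODE M21, GRCm38), 4 of the 38 genes held a match to the 5p seed of at least 7 bases (10.5%), against 17.0% of the 15140 tested genes with such a UTR. They were Glp1r, Gng4, Stx1a and Syt4, with 1 match each. For the 3p arm 9 of 38 held a match (23.7%, against 26.1% of all), namely Cpe, Pcsk1n, Pcsk2, Rims2, Scg3, Stx1a, Syt4, Syt7 and Sytl4. A match is a description of the sequence and not a measured site. The longest UTR also need not belong to the main transcript. Stx1a-201, which holds both Stx1a matches, took on average 19.4% of the gene's estimated transcripts in WT and 9.82% in KO. By library the shares were 9.85, 41.4 and 6.95% in WT and 12.4, 0.0 and 17.0% in KO, so the groups overlapped. The windows of 30 bases below show the 5p matches in capitals for Glp1r at chr17:30939665-30939694, Gng4 at chr13:13826504-13826533 and Stx1a at chr5:135051054-135051083, each on the plus strand, and the 3p match of Pcsk1n at chrX:7923556-7923585 on the plus strand, which pairs with bases 2 to 7 and is followed by an A.
Glp1r, 5p: gagcacagtcaTGAGATTgtttaatgcctt
Gng4, 5p: gcagtaagcctTGAGATTttccatgacaag
Stx1a, 5p: tgcccattttgTGAGATTtttatgtagaat
Pcsk1n, 3p: cagacatccagCACTGTAtcagcaactgcc
The 4 genes with a 5p match had log2 fold changes of KO over WT of -0.46 for Glp1r, -0.31 for Gng4, 0.11 for Stx1a and -0.03 for Syt4. Among the 9 genes with a 3p match the values ran from -0.43 for Pcsk1n to 0.24 for Pcsk2. Neither set of matches went with a single direction.

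The promoters of granin and convertase genes are known for the cyclic AMP response element (CRE), the palindrome TGACGTCA that CREB-family factors bind. RefSeq promoter windows, 250 bases before to 50 bases after the start site, were on hand for 28 of the 38 genes. The palindrome lay in 4 of these 28 windows (14.3%), against 2.03% of 27025 genes with a window. Unlike the UTR background, these 27025 genes were not limited to those tested, here and for the motifs below. The shares are therefore not matched for expression. Chgb, Pcsk1, Scg2 and Celf3 held it, and stretches of 60 bases with the palindrome in capitals are printed to show how it sits in each promoter, 5' to 3' on the gene's own strand (GRCm38.p6).
Chgb, chr2:132781544-132781603, plus strand: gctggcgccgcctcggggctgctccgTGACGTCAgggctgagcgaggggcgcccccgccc
Pcsk1, chr13:75089753-75089812, plus strand: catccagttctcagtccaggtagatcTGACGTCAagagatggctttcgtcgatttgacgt
Scg2, chr1:79440061-79440120, minus strand: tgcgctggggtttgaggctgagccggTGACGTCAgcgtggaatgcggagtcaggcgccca
Celf3, chr3:94484193-94484252, plus strand: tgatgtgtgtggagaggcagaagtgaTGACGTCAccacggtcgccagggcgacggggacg
The first base of the palindrome lay 72, 78, 68 and 108 bases before the annotated start site in that order. The 3 secretory genes with it had a lower mean in KO, with log2 fold changes of -0.21 for Chgb, -0.34 for Pcsk1 and -0.18 for Scg2, while Celf3 stood at 0.14. The core TGACG, which also lies within the palindrome, was in 14 of the 28 windows (50%, against 23.0% of all). All motifs were searched on both strands. Of the 6 other motifs searched, TTCAGCACC (the left part of RE1, the element bound by the neuronal repressor REST) was in 2 windows, those of Ptprn2 and Scg2 (7.14%, against 0.433%). The E box CAGCTG was in 12 (42.9%, against 18.3%) and the GC box GGGCGG in 20 (71.4%, against 38.2%), whereas CACGTG was in 1 (3.57%, against 8.09%), TATAAA in 5 (17.9%, against 15.7%) and CCAAT in 10 (35.7%, against 41.1%).

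Depth lay between 20565387 and 23028718 estimated reads per library. The libraries differed in ways that did not follow genotype alone. Erythroid markers summed to 5950 CPM in WT 1 and 4812 CPM in KO 2, against 1707 to 2841 CPM in the other 4 libraries, where CPM is a read count scaled to library size. KO 1 was low in Y-linked RNA, with Ddx3y at 0.141 CPM against at least 61.8 CPM in each of the other 5 libraries. The libraries also differed in the level shared by these genes. Of the 38 genes, 28 had their highest WT value in WT 2, and the median gene there was 0.16 above the WT mean on the log2 scale, against -0.08 in both WT 1 and WT 3. In KO the same median was -0.09, 0.01 and 0.00 in replicates 1 to 3. Together the 38 genes took from 0.286 to 0.348% of a WT library and from 0.284 to 0.327% of a KO library, so the groups overlapped in the total.

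Per transcript length, in TPM (read estimates scaled for length and library size) as deposited and summed per gene, granule cargo and its processing enzymes led the list. Chga, which encodes chromogranin A, a granin that promotes granule formation, stood at 438 ± 86.5 TPM (SD over the 6 libraries), and Cpe, carboxypeptidase E, at 366 ± 37.2 TPM. The spreads of these 2 levels over libraries overlapped, although Chga was the higher of the 2 within each of the 6 libraries. Bex2, a small X-linked gene of neuroendocrine cells, followed at 206 ± 61.2 TPM, and its spread was set by the groups, with 131 to 184 TPM in KO and 247 to 272 TPM in WT. The next step down led to Chgb at 89.0 ± 15.4 TPM, Pam at 83.3 ± 10.8 TPM, Scg2 at 77.7 ± 16.1 TPM and Pcsk2 at 77.4 ± 15.2 TPM, which lay within one another's spread. The vesicle SNARE gene Vamp2 (57.7 ± 9.35 TPM) and the sulfonylurea receptor gene Abcc8 (50.96 ± 9.02 TPM) headed the release machinery. Syt4, a synaptotagmin, was the lowest at 1.04 ± 0.141 TPM and rested on 47 to 73 reads per library, and Vgf, at 1.94 ± 0.610 TPM, rested on 37 to 98 reads. The other 36 genes had at least 154 reads in every library.

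**Figure D1:**
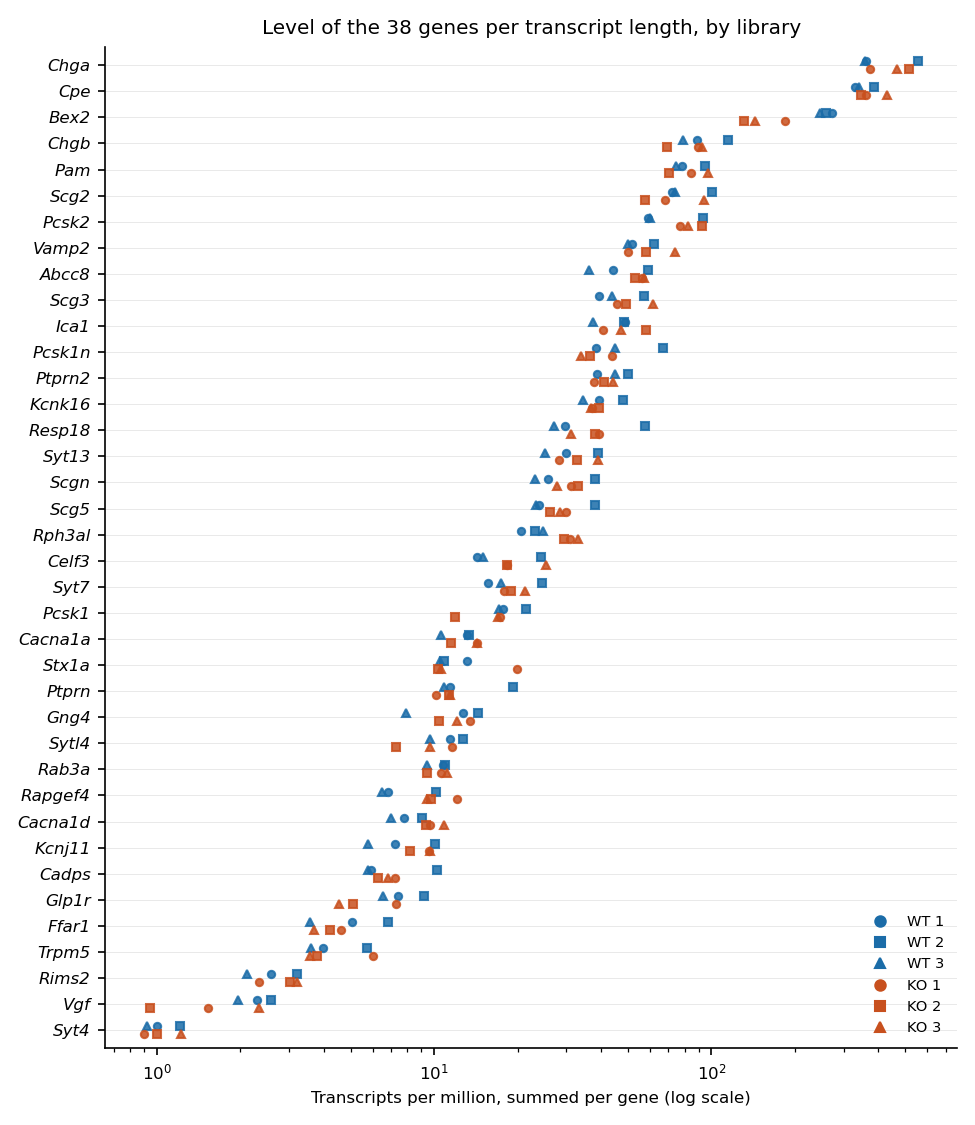
Level of each of the 38 genes in TPM (log axis), ordered by the mean over 6 libraries, with WT libraries in blue and KO libraries in orange and 1 symbol per replicate number. Chga and Cpe lie highest, Syt4 and Vgf lowest, WT 2 is often the highest WT library, and Bex2 is the abundant gene whose groups stand well apart.

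Each gene was then compared between genotypes, to see whether granule and release genes have other levels in newborns without miR-216a. With edgeR's quasi-likelihood test, 0 of the 38 genes passed an adjusted p of 0.05, as did 0 of all genes tested (0.0%). DESeq2 called 1 of the 38, Bex2, against 2.74% of all genes, and limma-voom called 0 of the 38, against 0.0126%. Without KO 1, edgeR called 1 of the 38, again Bex2, against 2.27% of all genes. Most of the genes were close to level. For 28 of 38 (73.7%) the log2 fold change was smaller than 0.25 in either direction, against 67.6% of all genes, and the median over the 38 was -0.02, against 0.01 over all genes. A lower mean in KO was found for 20 of the 38 and for 48.9% of all genes. Without WT 2, the library rich in these messages, 15 of the 38 were lower and the median was 0.09. WT 2 was singled out by the values of these same genes, so leaving it out raises most of their fold changes by construction. The range over all settings is given in the last section. Without adjustment 7 of the 38 had p under 0.05 (18.4%, against 12.6% of all genes). Of the 38, 5 were lower in KO by this measure (13.2%, against 6.96%) and 2 higher (5.26%, against 5.62%). The groups did not overlap for 9 of the 38 (23.7%, against 19.3%). KO values were all under the WT values for 6 of them (15.8%, against 10.3%) and all over them for 3 (7.89%, against 9.06%). The shares in the higher direction are near those of all genes, while those in the lower direction are 13.2% and 15.8% of the 38 and were not tested against all genes.

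**Figure D2:**
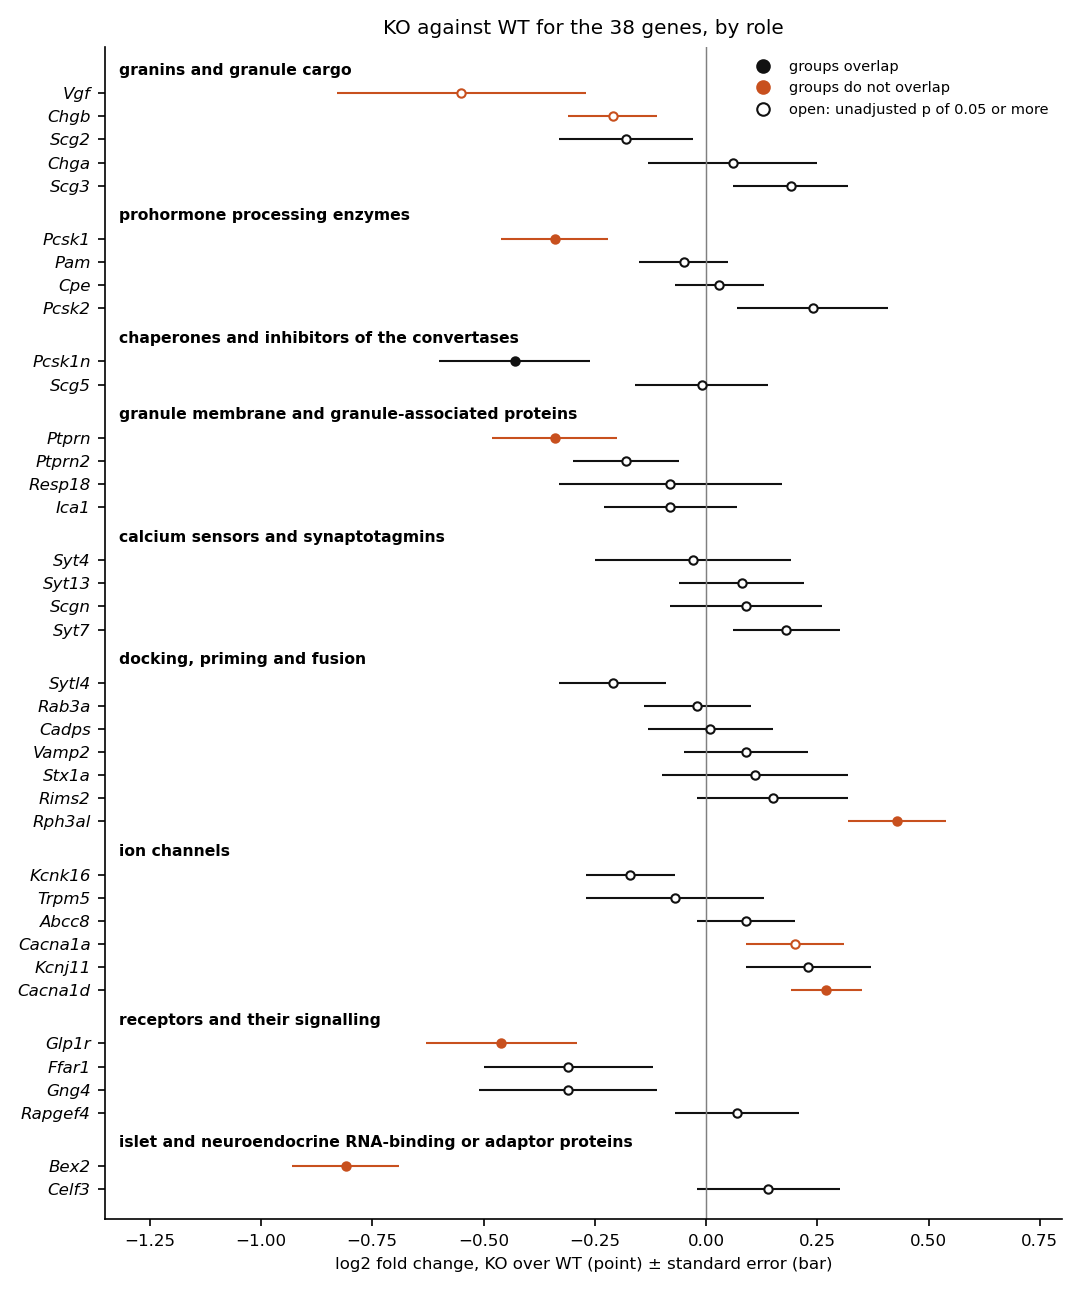
log2 fold change of KO over WT with its standard error for the 38 genes, ordered within their roles; orange marks genes whose groups do not overlap and filled points an unadjusted p under 0.05. Granule membrane genes and the group of receptors and their signalling lie mostly left of 0. Fusion genes lie mostly right of it, as do Cacna1a and Cacna1d, and Bex2, at -0.81, lies farthest from 0.

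Bex2 carried the clearest difference of the set. In library order, WT gave 158, 138 and 162 CPM and KO gave 100.2, 81.8 and 79.0 CPM. The groups did not overlap, and the KO mean was 0.57 times the WT mean (87.0 ± 11.5 against 152 ± 13.0 CPM, SD, n = 3, log2 fold change -0.81 ± 0.12 SE). The edgeR test placed it at rank 6 of 15897 genes, with an adjusted p of 0.207. Over the alternatives run the adjusted p ranged from 2.58e-06 with DESeq2 to 0.666 without WT 3, and the log2 fold change from -0.92 to -0.75. The gene lies on chromosome X (136066564 to 136068236, minus strand, GRCm38), and without KO 1, the library low in Y-linked RNA, it was called at an adjusted p of 0.00867. Whether sex has a part in the difference was not tested. The other 2 members on that chromosome, Pcsk1n and Sytl4, had log2 fold changes of -0.51 and -0.30 without KO 1 and were not called.

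Bex2 belongs to a family of similar X-linked genes whose reads Salmon may divide, so its neighbours are given beside it. Bex4 stood at 24.2, 23.7 and 28.4 CPM in WT and 23.9, 13.9 and 15.2 CPM in KO (log2 fold change -0.53, adjusted p = 0.345), with KO 1 inside the WT range. Bex3 stood at 53.2, 64.9 and 64.9 CPM in WT and 50.4, 42.3 and 56.9 CPM in KO (-0.29, adjusted p = 0.427). Bex1 was level, at 10.7 to 11.7 CPM in WT and 7.88 to 12.01 CPM in KO. None of the 4 family members was higher on average in KO, and only for Bex2 did the groups stay apart. Celf3, an RNA-binding splicing regulator of neurons and islet cells, stood at 28.2, 35.1 and 28.3 CPM in WT and 27.5, 41.4 and 32.5 CPM in KO, with overlapping groups.

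Among the granins, Chgb and Vgf were lower in every KO library while Chga was level. Chgb, which encodes chromogranin B, stood at 186, 217 and 187 CPM in WT and 177, 154 and 181 CPM in KO (log2 fold change -0.21 ± 0.10 SE, adjusted p = 0.472). Vgf, the precursor of several secreted peptides, stood at 4.07, 3.93 and 3.89 CPM in WT and 2.40, 1.88 and 3.80 CPM in KO (-0.55 ± 0.28 SE, adjusted p = 0.473). KO 3 came close to WT for both genes, so the gap between groups was small. Chga stood at 505, 707 and 568 CPM in WT and 485, 762 and 611 CPM in KO, where the spread within each group exceeded the difference (0.06 ± 0.19 SE). Secretogranin II, encoded by Scg2, ran from 135 to 171 CPM in WT and 118 to 166 CPM in KO. Scg3, whose product links chromogranin A to the granule membrane, ran from 70.6 to 90.7 CPM in WT and from 77.3 to 98.0 CPM in KO (0.19 ± 0.13 SE). Both overlapped, so the 5 granins and cargo genes had 3 lower and 2 higher means, and 0 were called.

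The 2 prohormone convertases differed in sign. Pcsk1 encodes PC1/3, which makes the first cuts in proinsulin, and stood at 59.6, 70.6 and 65.8 CPM in WT and 56.5, 44.3 and 53.6 CPM in KO. Every KO library was lower, with a log2 fold change of -0.34 ± 0.12 SE (unadjusted p = 0.019, adjusted p = 0.291). Pcsk2 encodes PC2, which is abundant in alpha cells and completes proglucagon processing, and stood at 214, 307 and 239 CPM in WT and 262, 358 and 279 CPM in KO (0.24 ± 0.17 SE, adjusted p = 0.602), with overlapping groups. Within a library the ratio of Pcsk1 to Pcsk2 was 0.279, 0.23 and 0.276 in WT and 0.215, 0.124 and 0.192 in KO, so that all 3 KO ratios lay below all 3 WT ratios. This ratio was formed after the values were seen and restates the 2 genes' own differences, so it adds no further support. Cpe, at 425 to 476 CPM in WT and 439 to 494 CPM in KO, and Pam, the amidating enzyme, at 146 to 167 and 131 to 159 CPM, were level within their spread.

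Each convertase has a small binding partner in the secretory pathway. Pcsk1n encodes proSAAS, an inhibitor of PC1/3, and stood at 56.5, 87.0 and 74.3 CPM in WT and 60.1, 56.2 and 45.7 CPM in KO (-0.43 ± 0.17 SE, unadjusted p = 0.0358, adjusted p = 0.355). WT 1 lay inside the KO range. Scg5 encodes 7B2, the chaperone that PC2 needs to mature, and was level at 20.0, 29.3 and 21.6 CPM in WT and 23.6, 24.1 and 22.5 CPM in KO. Relative to its enzyme, Pcsk1n to Pcsk1 had a ratio of 1.1 ± 0.144 in WT and 1.06 ± 0.208 in KO (SD, n = 3), so the pair stayed in proportion within the spread. Scg5 to Pcsk2 was 0.0936, 0.0955 and 0.0903 in WT and 0.0902, 0.0674 and 0.0805 in KO, apart by a margin at the third digit between WT 3 and KO 1.

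All 4 genes of the granule membrane and of proteins attached to granules had a lower mean in KO, by small amounts. Ptprn encodes IA-2, a receptor-type phosphatase homologue of the granule membrane and a known islet autoantigen, and stood at 27.2, 35.9 and 27.9 CPM in WT and 21.01, 27.0 and 24.1 CPM in KO. Its groups did not overlap, although WT 1 and KO 2 almost touched (-0.34 ± 0.14 SE, unadjusted p = 0.0481, adjusted p = 0.391). Without WT 2 its log2 fold change was -0.20. Its paralog Ptprn2 stood at 98.2, 114 and 130 CPM in WT and 90.0, 108 and 104 CPM in KO (-0.18 ± 0.12 SE). Resp18, a granule protein related to the IA-2 family, had its highest value in WT 2, at 25.8 CPM, against 14.2 to 20.1 CPM in the other 5 libraries. Ica1, islet cell autoantigen 1, was even across WT at 47.3 to 48.3 CPM and ranged from 35.2 to 53.2 CPM in KO. The direction of these last 2 genes did not hold over the alternatives, with log2 fold changes from -0.35 to 0.26 for Resp18 and from -0.22 to 0.11 for Ica1.

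The calcium sensors were level or slightly higher. Syt7, the synaptotagmin known as a high-affinity calcium sensor of insulin and glucagon release, stood at 40.5, 46.6 and 38.4 CPM in WT and 42.6, 54.2 and 45.7 CPM in KO (0.18 ± 0.12 SE, adjusted p = 0.599). Syt13, a synaptotagmin of developing endocrine cells, ran from 83.5 to 105 CPM in WT and from 79.0 to 109 CPM in KO. Scgn, which encodes the calcium-binding protein secretagogin, ran from 25.7 to 37.0 and from 28.2 to 37.3 CPM, and Syt4 from 2.56 to 2.92 and from 2.21 to 2.99 CPM. All 4 overlapped between groups.

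In the docking and fusion group Rph3al was higher in every KO library. It encodes Noc2, an effector of RAB3 and RAB27 on secretory granules of endocrine and exocrine cells, and stood at 30.4, 30.9 and 36.9 CPM in WT and 39.8, 47.0 and 45.6 CPM in KO. The KO mean was 1.35 times the WT mean (44.1 ± 3.84 against 32.7 ± 3.65 CPM, SD, n = 3, log2 fold change 0.43 ± 0.11 SE, unadjusted p = 0.00552, adjusted p = 0.234). Over the alternatives its log2 fold change ranged from 0.33 to 0.53 and its adjusted p from 0.064 to 0.666. Sytl4, which encodes granuphilin, the protein that tethers insulin granules to the plasma membrane, stood at 32.5, 29.0 and 29.1 CPM in WT and 29.2, 22.4 and 26.7 CPM in KO (-0.21 ± 0.12 SE, adjusted p = 0.531), with KO 1 inside the WT range.

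The core SNARE and priming genes differed little. Vamp2, the vesicle SNARE, stood at 64.3, 72.9 and 69.5 CPM in WT and 59.96, 74.5 and 86.2 CPM in KO, and Stx1a, the plasma membrane SNARE syntaxin 1A, at 16.6, 14.5 and 14.4 CPM in WT and 22.1, 12.4 and 14.4 CPM in KO. Each had 1 high KO library, KO 3 for Vamp2 and KO 1 for Stx1a. Rab3a, the small GTPase of vesicles, was even in all 6 libraries at 9.89 to 10.7 CPM. Cadps, the priming factor CAPS1, ran from 15.7 to 20.4 CPM in WT and from 16.5 to 19.0 CPM in KO, and Rims2, a RAB3-binding scaffold of the release site, from 7.31 to 9.18 and from 7.49 to 9.92 CPM.

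**Figure D3:**
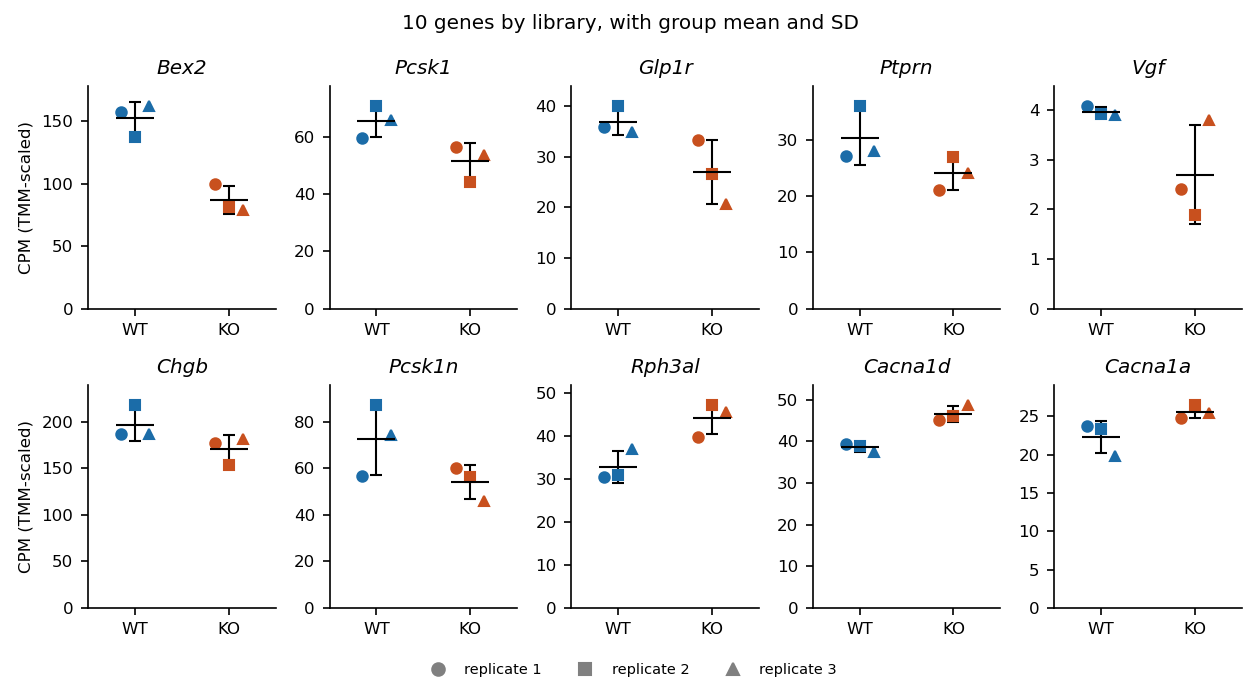
CPM by library for the 9 genes whose groups do not overlap and for Pcsk1n, with the group mean (bar) and SD (whiskers), each axis starting at 0. Bex2 shows the widest gap, while for Vgf, Chgb and Ptprn the nearest WT and KO libraries almost meet.

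Both voltage-gated calcium channel genes among the 38 were higher in every KO library. Cacna1d encodes the pore of the L-type channel CaV1.3 and stood at 39.5, 39.0 and 37.4 CPM in WT and 45.1, 46.0 and 48.6 CPM in KO. Replicates agreed closely (46.6 ± 1.84 against 38.6 ± 1.102 CPM, SD, n = 3), and the log2 fold change was 0.27 ± 0.08 SE (unadjusted p = 0.012, adjusted p = 0.262), from 0.24 to 0.31 over the alternatives. Cacna1a, the pore of the P/Q-type channel, stood at 23.7, 23.3 and 19.8 CPM in WT and 24.8, 26.4 and 25.5 CPM in KO (0.20 ± 0.11 SE, adjusted p = 0.501).

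The 2 KATP subunits showed small positive differences inside their spread. Abcc8, the sulfonylurea receptor SUR1, stood at 103, 128 and 100.5 CPM in WT and 120, 122 and 112 CPM in KO, and Kcnj11, the pore subunit Kir6.2, at 16.3, 21.6 and 16.0 CPM in WT and 20.5, 20.3 and 22.6 CPM in KO (0.23 ± 0.14 SE, adjusted p = 0.556). Their ratio was 6.17 ± 0.193 in WT and 5.61 ± 0.592 in KO. Kcnk16, the islet K2P potassium channel TALK-1, stood at 48.2, 54.0 and 47.2 CPM in WT and 42.3, 48.8 and 41.5 CPM in KO (-0.17 ± 0.10 SE), and Trpm5, a calcium-activated cation channel, ran from 8.59 to 13.3 and from 9.06 to 12.3 CPM.

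Among the receptors and their signalling genes, Glp1r, Ffar1 and Gng4 had a lower mean in KO and Rapgef4 a slightly higher one. Glp1r, the receptor for the incretin GLP-1, stood at 35.9, 40.0 and 35.0 CPM in WT and 33.4, 26.7 and 20.7 CPM in KO. KO 1 lay just under the WT range and KO 3 far under it, and the log2 fold change was -0.46 ± 0.17 SE (unadjusted p = 0.025, adjusted p = 0.318). For Glp1r the adjusted p ranged from 0.0779 without KO 1 to 0.676 over the alternatives. Ffar1, the fatty acid receptor GPR40, stood at 16.9, 20.6 and 13.2 CPM in WT and 14.5, 15.1 and 11.5 CPM in KO (-0.31 ± 0.19 SE), and Gng4, a G protein gamma subunit, at 16.5, 21.3 and 14.8 and at 14.6, 16.9 and 11.1 CPM (-0.31 ± 0.20 SE). Both overlapped, and the sign for Gng4 turned to 0.03 with a transcript length offset. Rapgef4, which encodes EPAC2, the cyclic AMP sensor downstream of GLP1R, overlapped at 17.4 to 22.3 CPM in WT and 18.3 to 22.5 CPM in KO. Over the alternatives its log2 fold change ranged from -0.06 to 0.40.

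The wider pathway showed the same lack of calls. Of 40 further docking, priming and fusion genes, 39 were tested and 0 were called, with 26 higher and 13 lower means and a median log2 fold change of 0.04. Pclo, the active-zone scaffold piccolo, stood at 36.8, 44.3 and 36.0 CPM in WT and 42.3, 60.7 and 54.5 CPM in KO (0.43 ± 0.15 SE, adjusted p = 0.302), and Rab3b at 4.65 to 6.61 and 6.88 to 8.46 CPM (0.46 ± 0.19 SE, adjusted p = 0.371). Napa, an adaptor that recycles SNARE complexes, was the most abundant of these per length and stood at 71.0 to 83.5 CPM in WT and 68.8 to 87.7 CPM in KO. Of 29 further granule assembly and membrane genes 0 were called, with 18 higher and 11 lower means (median 0.06). Cabp7, a calcium-binding protein of the secretory pathway, was higher in every KO library, at 6.03 to 7.06 CPM against 3.61 to 4.25 CPM (0.73 ± 0.17 SE, adjusted p = 0.207). Peg3, an imprinted zinc finger gene, stood at 1052 to 1094 CPM in WT and 1139 to 1532 CPM in KO (0.29 ± 0.13 SE, adjusted p = 0.406). Gnas, the stimulatory G protein alpha subunit and the most abundant of these per length, stood at 1098 to 1152 CPM in WT and 1031 to 1060 CPM in KO (-0.12 ± 0.09 SE). Of 39 further channels, receptors and signalling genes 37 were tested and 0 called, with 24 higher and 13 lower means (median 0.11). There Prlr, the prolactin receptor, stood at 13.0, 9.38 and 9.07 CPM in WT and 7.91, 4.72 and 4.32 CPM in KO (-0.89 ± 0.26 SE, adjusted p = 0.259, 0.0413 and called without KO 1), and the T-type calcium channel gene Cacna1h at 16.4 to 18.2 and 19.8 to 26.2 CPM (0.42 ± 0.13 SE, adjusted p = 0.268). The setting without KO 1 called 2.27% of all genes. Among the other calcium channel pore genes of this list Cacna1c had a higher mean in KO (0.23), while Cacna1b (-0.03) and Cacna1e (-0.47) had a lower one. Gnao1, a neuronal and islet G protein alpha subunit, led there in abundance per length and stood at 78.4 to 99.9 CPM in WT and 90.9 to 115 CPM in KO (0.26 ± 0.13 SE).

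The hormones are the cargo that these granules carry. The 8 islet hormone genes summed to 6825, 8707 and 7302 CPM in WT and 6239, 6404 and 5818 CPM in KO, with every KO library lower, whereas the 38 genes summed to 2863, 3485 and 3034 CPM in WT and 2840, 3268 and 3131 CPM in KO. Of the 8 hormone genes, 6 had a lower and 2 a higher mean in KO. The groups did not overlap for Ins1, Ins2 and Sst, and they overlapped for Iapp, Gcg, Ppy, Pyy and Ghrl. Per 100 hormone reads there were 42.0, 40.0 and 41.5 reads of the 38 genes in WT and 45.5, 51.0 and 53.8 in KO. The sums of the 38 genes overlapped between groups, so this measure restates the lower hormone sums and adds no further support. Most hormone reads were insulin, and Ins2 stood at 2809 to 3370 CPM in WT and 2116 to 2290 CPM in KO (log2 fold change -0.46, adjusted p = 0.236), while Ins1 stood at 2063 to 2533 and 1517 to 1851 CPM (-0.40, adjusted p = 0.281). Of 14 within-library ratios formed after the values were seen, Chga to Ins2 was 0.18, 0.21 and 0.196 in WT and 0.219, 0.36 and 0.267 in KO, without overlap, and Pcsk1 to Ins2 was level at 0.0216 ± 0.000941 and 0.0233 ± 0.00232. Chga alone overlapped between groups while Ins2 did not, so Chga to Ins2 also restates its parts. Set against glucagon RNA, Chga to Gcg was 0.406 to 0.459 in WT and 0.337 to 0.608 in KO, and Pcsk2 to Gcg was 0.171 to 0.194 and 0.182 to 0.278. Both overlapped.

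**Figure D4:**
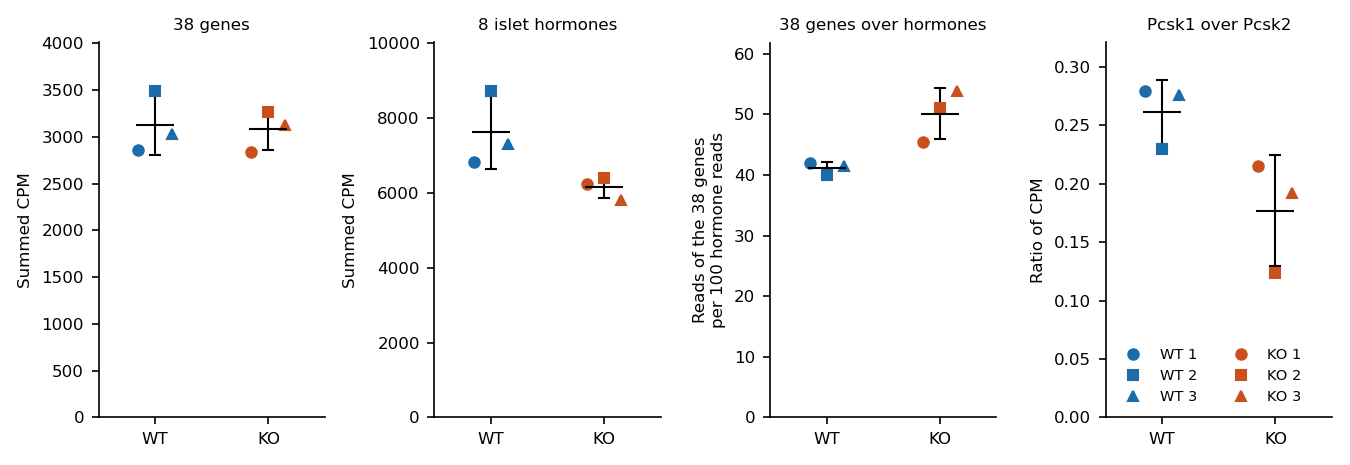
Summed CPM of the 38 genes and of the 8 islet hormones, reads of the 38 genes per 100 hormone reads, and the ratio of Pcsk1 to Pcsk2, by library with group mean and SD. The sum over the 38 genes overlaps between groups, while the other 3 measures do not. The reads per 100 hormone reads and the ratio of Pcsk1 to Pcsk2 restate their parts.

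Transcript shares were read from the deposited TPM for the 24 of 38 genes with 2 or more isoforms at 10% or more of the gene. Of 73 such isoforms, 8 had no overlap between groups (11%, against 10.8% of isoforms of all tested genes chosen in this way), a share near that of all genes. In Kcnk16 and Scg2 both isoforms of the gene count, as complements. The widest gap was in Rapgef4, where Rapgef4-201, a coding isoform of 4109 bases, took 57.6, 54.1 and 51.8% in WT and 38.5, 40.2 and 42.4% in KO, on 249 to 399 reads per library. The reads of Rapgef4-201 themselves overlapped, at 269, 399 and 249 in WT and 299, 269 and 284 in KO. Of its other isoforms Rapgef4-202 took 16.9 to 20.9% in WT and 4.81 to 21.6% in KO. Rapgef4-208, of 694 bases, took 0 to 19.5% in WT and 7.6 to 27.5% in KO on 0 to 30 reads. The share of Rapgef4-201 thus also depends on short isoforms with few reads. Abcc8-201, the isoform of 4877 bases, took 35.6, 34.9 and 36.8% in WT and 33.6, 29.4 and 24.0% in KO. Kcnk16-202 (57.7 ± 0.914% against 54.5 ± 2.07%) and Scg2-202 (61.5 ± 2.40% against 57.2 ± 1.35%, SD, n = 3) differed by a few percentage points. Rab3a, whose total was even, had 4.28, 15.6 and 9.95% as Rab3a-203 in WT and 15.9, 26.3 and 22.1% in KO, on 11 to 63 reads. Stx1a-205, a retained-intron transcript, took 23.9, 25.4 and 19.2% of Stx1a in WT and 34.6, 29.6 and 25.6% in KO. Salmon divides reads among isoforms that share exons, so these shares are estimates.

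**Figure D5:**
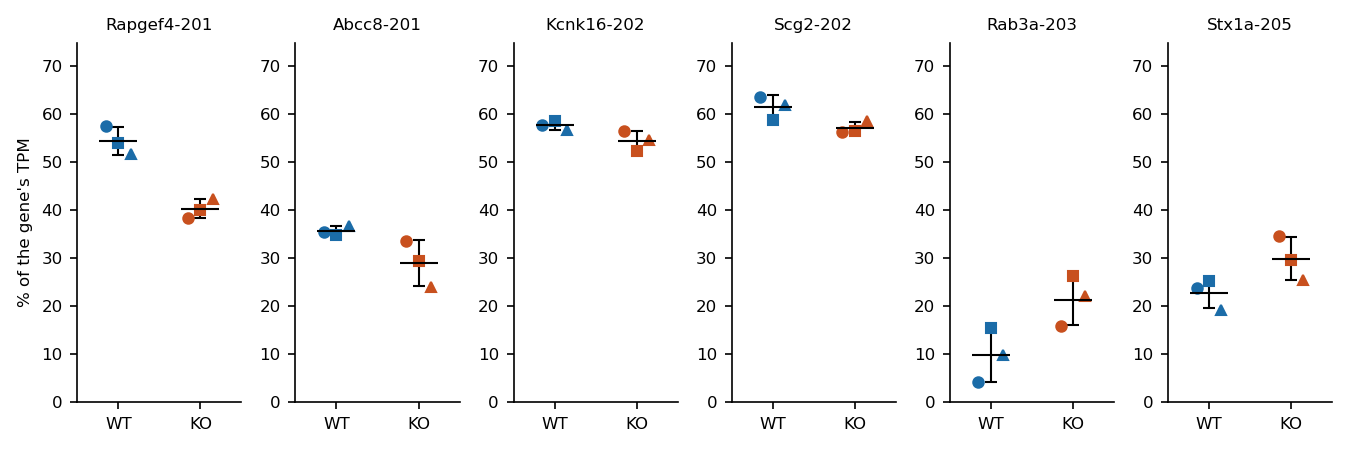
Share of a gene's TPM taken by 1 isoform in each of 6 genes (percent), by library with group mean and SD, WT in blue and KO in orange, with circles, squares and triangles for replicates 1, 2 and 3. Rapgef4-201 shows the widest gap, from 51.8% or more in WT to 42.4% or less in KO.

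Other cell types can add to these values, and how much each of them did was not measured. Of 24 nerve and glia markers 22 were tested and 0 were called. They summed to 140 to 166 CPM in WT and 126 to 150 CPM in KO, 16 had a lower and 6 a higher mean in KO, and none was at 0 in all libraries. Gap43, a growth cone protein, was the most abundant of them per length and stood at 11.1 to 14.2 CPM in WT and 7.16 to 9.75 CPM in KO (log2 fold change -0.56, adjusted p = 0.259). Cdh19, a cadherin of Schwann cell precursors, was higher in every KO library, at 1.60, 1.68 and 3.25 CPM against 1.23, 0.962 and 1.19 CPM in WT (0.95, adjusted p = 0.327). The part of nerve RNA in the lower Vgf and Chgb was not tested. Acinar markers, which define the organ, summed to 192400 to 276600 CPM in WT and 239500 to 297700 CPM in KO, with 7 means higher and 7 lower. Islet transcription factors overlapped between groups in their sum, at 414 to 488 and 420 to 527 CPM, and of the 19 tested 12 had a higher and 7 a lower mean in KO (median 0.08). Mafa, a regulator of mature beta cells, stood at 16.1 to 20.8 CPM in WT and 8.81 to 12.04 CPM in KO (log2 fold change -0.75, adjusted p = 0.207). Rfx6, a factor of islet development, stood at 13.2 to 19.9 CPM in WT and 18.5 to 38.1 CPM in KO (0.65, adjusted p = 0.398). Mlxipl, the glucose-responsive factor ChREBP and the most abundant of them per length, stood at 56.5 to 73.2 and 57.03 to 79.2 CPM (0.10, adjusted p = 0.833). Ductal (1069 to 1311 and 1099 to 1144 CPM) and macrophage markers (611 to 636 and 524 to 631 CPM) overlapped, as did mesenchyme markers (9909 to 12100 and 6486 to 10400 CPM). Of those tested, 7 of 11 ductal, 2 of 10 macrophage and 3 of 10 mesenchyme markers had a higher mean in KO. Endothelial markers were 760 to 858 CPM in WT and 866 to 920 CPM in KO, with 9 of 10 higher in KO. Of 9 intestinal and enteroendocrine markers 3 passed the filter, 2 with a higher and 1 with a lower mean in KO. All 9 summed to 21.2 to 23.2 CPM in WT and 27.1 to 36.3 CPM in KO, without overlap. Vil1, among the 3, went the other way, at 9.94 to 12.1 CPM in WT and 7.74 to 10.06 CPM in KO (-0.32). The gap in the sums was therefore not shared by the list. Lgals4, an intestinal galectin, had the highest fold change of the 3, at 8.43, 9.34 and 7.88 CPM in WT and 15.5, 23.3 and 18.9 CPM in KO (1.17, adjusted p = 0.207, 0.00867 without KO 1), and DESeq2 also called it. Of all genes, 2.27% were called without KO 1 and 2.74% with DESeq2. With edgeR on all 6 libraries no gene of these lists was called, and the part of these cell types in the values of the 38 genes was not tested.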

How the data were processed

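Per the labels' protocols, RNA was prepared with a stranded mRNA kit. Per the submitters' processing notes, reads were processed with bcl2fastq, Salmon 0.13.1 and DESeq2 1.24.0 on mm10. The authors deposited, per library, Salmon's estimated counts, TPM and effective lengths for 116248 transcripts. The authors' scaled gene table was not used. Of the transcripts, 116072 matched GENCODE M21, all with equal length, and the unmatched rest held 0.0195 to 0.0317% of reads. Estimated counts were summed to genes and rounded (Python 3.11.15, pandas 2.3.3). Genes with 10 or more reads in 3 or more libraries were kept (15897). KO was compared with WT by edgeR 4.0.16's quasi-likelihood test (R 4.3.3, TMM scaling, Benjamini-Hochberg over all genes, threshold 0.05), and errors are SDs over 3 libraries. Standard errors (SE) of log2 fold changes were derived from the F statistic. Replicate numbers follow sample order and pair nothing. Whether spread between mice or technical spread dominates is not known, and with 3 against 3 the smallest exact permutation p is 0.1. Every pair of libraries differed beyond sampling noise (chi-square per degree of freedom 22.3 to 85.5).

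Other settings tried were upper-quartile and DESeq2 size factors, filterByExpr, no filter, DESeq2 1.42.0, limma-voom (limma 3.58.1), a transcript length offset, library sizes without acinar enzyme genes, leaving out each library, and leaving out WT 1 with KO 2. The tests were tried on simulated data with known changes. The 38 genes, their roles and the other lists were chosen with earlier results of these data known. Named were all 38 genes and, from the pathway, hormone, islet transcription factor and nerve lists, up to 2 genes with the smallest p and the most abundant per length. The other cell type lists are given by sums and counts, with Lgals4 and Vil1 named after their values were seen. The Bex paralogs, motifs, isoforms, ratios and Ddx3y were chosen after values were seen. Ero1b was matched through its synonym Ero1lb.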

Additional observations from a re-analysis of the deposited data

How the results depend on the processing

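Over all genes the number called was 0 with the main settings, 1 with no filter, 2 with limma-voom, 436 with DESeq2, 2 without WT 1 and KO 2 together, and from 0 to 361 when 1 library was left out, the 361 being without KO 1. Of the 38 genes, 0 were called with the main settings, 1 (Bex2) with DESeq2, and 0 to 1 when 1 library was left out. The cause was not tested. The number of the 38 with a KO mean under the WT mean ran from 15 to 26. For 20 of the 38 the direction held under each of the 15 settings other than the main one, Bex2, Pcsk1, Pcsk1n, Ptprn, Glp1r, Rph3al, Cacna1d, Chgb and Vgf among them. For the other 18 it turned in at least 1. With upper-quartile factors the log2 fold change was -0.01 for Cadps, and with a transcript length offset 0.11 for Ica1, -0.11 for Cadps and 0.03 for Gng4. When libraries were left out, the lowest and highest log2 fold changes were -0.22 and 0.21 for Chga, -0.01 and 0.41 for Pcsk2, -0.02 and 0.08 for Cpe, -0.09 and 0.04 for Pam, -0.14 and 0.17 for Scg5, -0.35 and 0.26 for Resp18, -0.22 and 0.07 for Ica1, -0.12 and 0.09 for Syt4, -0.01 and 0.21 for Syt13, -0.14 and 0.27 for Scgn, -0.18 and 0.33 for Stx1a, -0.04 and 0.22 for Vamp2, -0.05 and 0.01 for Rab3a, -0.05 and 0.15 for Cadps, -0.22 and 0.11 for Trpm5, -0.06 and 0.19 for Rapgef4, -0.08 and 0.27 for Celf3, -0.34 and 0.23 for Gcg, -0.09 and 0.14 for Napa and -0.01 and 0.22 for Mlxipl. No paired analysis was possible because replicate numbers follow sample order and pair no mice. The depth limits Vgf and Syt4, with fewer than 100 reads per library, and 3 mice per genotype limit every comparison.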
